A study of Homo sapiens with 8 samples.

Results

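Matrix proteases and the plasminogen system were followed through 9 genes, chosen by symbol from a count table of 60617 genes. They are the secreted matrix metalloproteinases MMP1, MMP3, MMP9 and MMP10, the membrane-bound MMP14, the inhibitor TIMP1, the plasminogen activators PLAU and PLAT, and the PLAU receptor PLAUR. All 9 were listed in the table. Of these, 8 had enough counts to be tested, and MMP3 did not.

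RNA sequencing was done on MCF-10A, an established non-tumorigenic breast epithelial cell line, grown in a medium with horse serum, EGF, hydrocortisone, insulin and cholera toxin. The 4 groups were Empty cells without treatment, Empty cells after 12 h in 1 µM JG-98, NeuT cells without treatment, and NeuT cells after 12 h in 1 µM JG-98, with 2 libraries each. JG-98 blocks chaperones of the Hsp70 family, and the series asked how sensitive transformed cells are to it. The labels name no vehicle for the untreated cells and do not spell out what the Empty and NeuT cells carry. They name 1 line of each kind, so the NeuT construct and any other difference between the cultures cannot be told apart. Nothing in the labels says that replicates were separate cultures, so p-values measure the spread between these libraries, which may be technical.

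Matrix metalloproteinases are zinc enzymes that are secreted or anchored as inactive precursors and cut collagens, gelatin, proteoglycans and other proteins outside the cell. Tissue inhibitors of metalloproteinases such as TIMP1 bind the active enzymes. Plasminogen activators convert plasminogen to plasmin, which dissolves fibrin and can also activate metalloproteinase precursors. PLAU, or urokinase, does this at the cell surface while bound to its receptor PLAUR, whereas PLAT, or tissue-type activator, works mainly on fibrin. In breast tissue these genes take part in ductal remodelling and involution, and epithelial cells in culture are known to switch several of them on when growth factor signalling is high.

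Total counts lay between 55050996 and 56861971 per library, except for the first Empty library under JG-98 with 37341458. Levels are given as CPM, counts divided by library size after TMM scaling, which corrects for differences in RNA composition. A count of 0 leaves room for up to 3 counts, or 0.0511 to 0.0787 CPM by library, and this limit covers counting error only. All 10 markers of mammary epithelium were present, with summed levels of 20566 to 21319 CPM in untreated Empty cells, 20823 to 21230 CPM in Empty cells under JG-98, 24441 to 24528 CPM in untreated NeuT cells and 24144 to 24781 CPM in NeuT cells under JG-98. Of 9 fibroblast markers, PDGFRA and LUM were at or under the limit in every library. The fibroblast sum was 81.5 to 84.5 CPM in untreated Empty cells and 165.2 to 176.1 CPM in untreated NeuT cells, and 78.1 to 80.9 CPM against 164.8 to 178.6 CPM under JG-98. It moved with the lines through DCN, at 2.47 to 77.5 CPM over all libraries, and FAP, at 69.5 to 96.4 CPM. Of 8 leukocyte markers, CD68, CD3E and MS4A1 were at or under the limit throughout, and the sum was 25.5 to 28.8 CPM in Empty and 31.9 to 35.3 CPM in NeuT libraries. Most of this sum came from CSF1R, at 19.4 to 23.2 CPM over all libraries, and CD14, at 5.01 to 12.2 CPM. The 5 endothelial markers summed to 12.3 to 17.6 CPM in Empty and 9.55 to 11.4 CPM in NeuT libraries, mostly through PECAM1, at 7.85 to 15.0 CPM over all libraries. The part of these marker differences in the results was not tested.

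From the RefSeq promoters, 6 windows were read for 5 of the 9 genes. These genes were MMP10, MMP14, TIMP1, PLAUR and PLAU, the last with a pair of starts. No window was read for PLAT, so its promoter was not searched for the motifs below. Each window was read as the 250 bases before the annotated start on GRCh38.p14, 5′ to 3′ on the strand of the gene. The windows of MMP10 and MMP14 are shown because, of the genes whose windows were read, MMP10 differed most between the lines and MMP14 least. PLAUR is shown because it carried the full AP-1 motif. AP-1 factors are the Fos and Jun proteins, which act at the end of growth factor signalling. The motif was searched as TGAGTCA, whose other strand reads TGACTCA, and in the looser form TGANTCA, which includes it. The TATA box was searched as TATAAA and the core of ETS sites as AGGAAG, both on either strand. Capitals mark the AP-1 and TATA matches. The windows are chr11:102780629-102780878 on the minus strand for MMP10, chr19:43670170-43670419 on the minus strand for PLAUR and chr14:22836335-22836584 on the plus strand for MMP14.
MMP10: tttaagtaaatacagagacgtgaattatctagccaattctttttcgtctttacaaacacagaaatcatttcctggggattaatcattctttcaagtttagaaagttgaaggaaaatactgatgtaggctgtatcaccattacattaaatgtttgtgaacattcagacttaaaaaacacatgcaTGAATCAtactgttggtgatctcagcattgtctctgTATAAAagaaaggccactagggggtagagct
PLAUR: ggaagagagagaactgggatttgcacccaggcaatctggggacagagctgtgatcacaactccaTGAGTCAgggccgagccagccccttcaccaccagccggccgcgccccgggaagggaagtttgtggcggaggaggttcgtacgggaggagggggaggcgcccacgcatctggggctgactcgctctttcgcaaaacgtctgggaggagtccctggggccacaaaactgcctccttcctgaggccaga
MMP14: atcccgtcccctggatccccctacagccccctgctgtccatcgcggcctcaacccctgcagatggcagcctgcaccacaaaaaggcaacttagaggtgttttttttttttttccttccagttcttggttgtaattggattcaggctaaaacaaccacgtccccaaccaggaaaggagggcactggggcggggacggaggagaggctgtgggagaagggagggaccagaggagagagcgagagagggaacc
MMP10 carried TGAATCA at 67 to 61 bases before its start and TATAAA at 31 to 26 bases. PLAUR carried TGAGTCA at 186 to 180 bases before its start. MMP14 held none of the 4 patterns. Among 35116 promoter windows of the same length, 4.2% held TGAGTCA or its complement, 6.57% held TGANTCA, 10.7% held TATAAA and 28.7% held AGGAAG on either strand. The ETS core lay 87 to 82 bases before the start of TIMP1, 221 to 216 bases before one start of PLAU, and as CTTCCT 15 to 10 bases before the start of PLAUR. These matches describe letters in the windows, not binding.

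MMP1, the interstitial collagenase, which cuts fibrillar collagen, was nearly silent in Empty cells and present in every NeuT library. Its gene, ENSG00000196611, lies at 102789919 to 102798160 on the minus strand of chromosome 11, in the coordinates of the deposited table. Counts were 0 and 2 in untreated Empty cells, 0 and 2 in Empty cells under JG-98, 110 and 132 in untreated NeuT cells, and 109 and 188 in NeuT cells under JG-98. All 4 NeuT libraries lay far above all 4 Empty libraries. The ratio of NeuT to Empty, scaled for library size, was 126.8 without treatment, with an exact 95% counting interval of 34.7 to 1053, and 132.9 under JG-98, with an interval of 36.5 to 1103. Because the Empty groups held only 2 counts each, the size of the ratio is poorly bounded, and a fitted log2 difference depends on the prior count. MMP1 entered the test through its NeuT libraries alone, so its p-value between the lines is tied to the difference and is not given.

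MMP10, or stromelysin-2, cuts proteoglycans and activates collagenase precursors, and its gene ENSG00000166670 lies beside MMP1 at 102770502 to 102780628 on the minus strand of chromosome 11. It was low in Empty cells and far higher in NeuT cells. Counts were 4 and 6 in untreated Empty cells, 2 and 4 in Empty cells under JG-98, 265 and 232 in untreated NeuT cells, and 205 and 286 in NeuT cells under JG-98. No NeuT library came near an Empty one. The scaled ratio of NeuT to Empty counts was 52.1 without treatment (exact 95% counting interval 28.1 to 109.3) and 73.3 under JG-98 (33.4 to 200.6). Like MMP1, it entered the test through its NeuT libraries alone, and no p-value between the lines is given. MMP3, or stromelysin-1, the closest relative of MMP10 in the same cluster (ENSG00000149968, 102835801 to 102843609, minus strand), had 5 counts in all, at most 2 in a library, and was not tested. Of the 50-base stretches of the MMP10 transcript, 3.45% also occur in MMP3, and reads from those stretches could not be told apart. MMP1 and MMP10 were thus expressed in NeuT cells while MMP3, in the same cluster, stayed at or under the limit set by a count of 0 in all 8 libraries.

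MMP9, the gelatinase that cuts denatured collagen and type IV collagen of basement membranes, was present in both lines and higher in NeuT cells. It is ENSG00000100985, at 46008908 to 46016561 on the plus strand of chromosome 20. Levels were 5.37 and 3.91 CPM in untreated Empty cells, 6.35 and 5.86 CPM in Empty cells under JG-98, 16.0 and 13.8 CPM in untreated NeuT cells, and 12.0 and 16.9 CPM in NeuT cells under JG-98. The lowest NeuT library stood above the highest Empty one. MMP9 was 3.21-fold higher in untreated NeuT than in untreated Empty cells, a log2 difference of 1.68 ± 0.17 (SE, n = 2 against 2; edgeR adjusted p = 4.76e-06), and 2.37-fold higher under JG-98 (1.25 ± 0.17, adjusted p = 6.45e-05). The antisense gene SLC12A5-AS1 shares 18.4% of the exonic bases of MMP9 and had at most 2 counts in a library.

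MMP14, a membrane-anchored enzyme that cuts collagen at the cell surface and activates the MMP2 precursor, was the most abundant metalloproteinase among these genes and the one that differed least. It is ENSG00000157227, at 22836560 to 22849027 on the plus strand of chromosome 14. Levels were 225.8 and 209.2 CPM in untreated Empty cells, 220.0 and 240.0 CPM in Empty cells under JG-98, 315.9 and 304.3 CPM in untreated NeuT cells, and 296.1 and 364.0 CPM in NeuT cells under JG-98. All NeuT libraries were above all Empty libraries, by a margin that was small beside that of the secreted enzymes. The fold was 1.43 in both states, with log2 differences of 0.51 ± 0.083 without treatment (adjusted p = 0.000211) and 0.52 ± 0.083 under JG-98 (adjusted p = 0.000183).

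TIMP1, the secreted inhibitor that binds most metalloproteinases and also the MMP9 precursor, rose in NeuT cells with the smallest SE of these genes. It is ENSG00000102265, at 47582408 to 47586789 on the plus strand of chromosome X. Levels were 144.4 and 140.3 CPM in untreated Empty cells, 163.0 and 150.8 CPM in Empty cells under JG-98, 494.0 and 471.3 CPM in untreated NeuT cells, and 531.0 and 548.4 CPM in NeuT cells under JG-98. The lines did not overlap. TIMP1 was 3.39-fold higher in untreated NeuT cells (log2 difference 1.76 ± 0.057, adjusted p = 4.99e-13) and 3.44-fold higher under JG-98 (1.78 ± 0.057, adjusted p = 4.5e-13). The inhibitor was thus higher in the same libraries as the proteases.

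**Figure D1:**
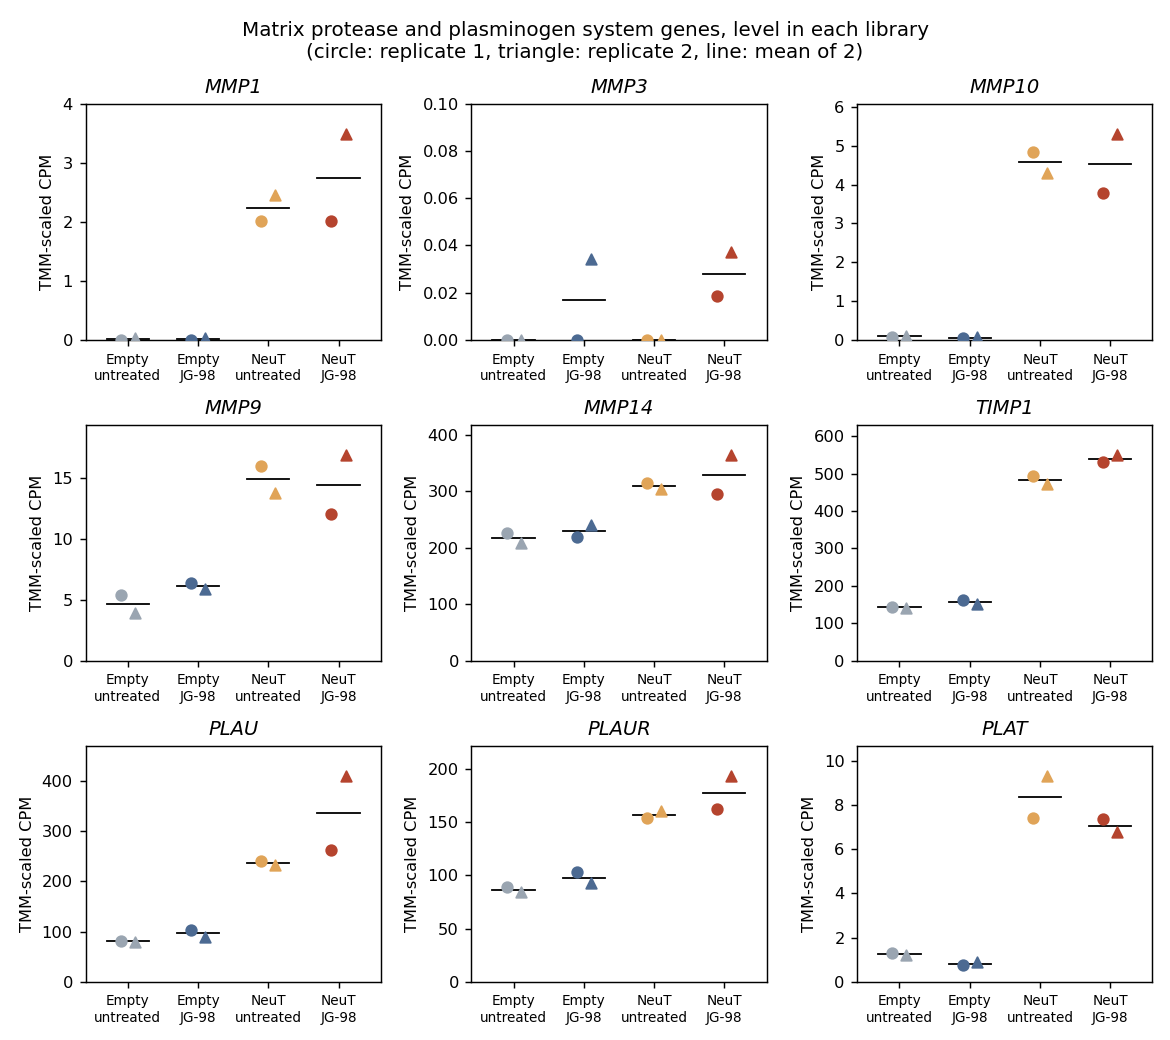
Level of each of the 9 genes in each library, in TMM-scaled CPM on axes that start at 0, with circles for replicate 1, triangles for replicate 2 and a line at the mean of 2. NeuT libraries lie above all Empty libraries for every gene but MMP3, which has at most 2 counts in a library, and replicate 2 of NeuT under JG-98 is the higher of its pair for every gene but PLAT.

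PLAU, the urokinase-type activator, is ENSG00000122861 at 73909177 to 73917496 on the plus strand of chromosome 10. It rose in NeuT cells, and its libraries disagreed most under JG-98. Levels were 82.1 and 78.8 CPM in untreated Empty cells, 102.9 and 90.0 CPM in Empty cells under JG-98, 241.0 and 233.6 CPM in untreated NeuT cells, and 262.5 and 409.6 CPM in NeuT cells under JG-98. The last library stood well above the others. PLAU was 2.95-fold higher in untreated NeuT cells (log2 difference 1.56 ± 0.23, adjusted p = 0.00545) and 3.49-fold higher under JG-98 (1.80 ± 0.23, adjusted p = 0.00324). The antisense gene C10orf55 shares 31.1% of the exonic bases of PLAU and had 27 to 61 counts in a library, beside 3920 to 22134 for PLAU. The use of strand in counting is not given in the sources used here, so reads of the pair in the shared bases may not be told apart.

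PLAUR, the receptor that holds urokinase at the cell surface (ENSG00000011422, 43646095 to 43670547, minus strand of chromosome 19), differed less than its ligand. Levels were 88.7 and 84.6 CPM in untreated Empty cells, 103.3 and 92.7 CPM in Empty cells under JG-98, 154.0 and 160.4 CPM in untreated NeuT cells, and 162.5 and 193.2 CPM in NeuT cells under JG-98. Again no NeuT library was as low as any Empty one. The fold was 1.81 without treatment (log2 difference 0.86 ± 0.077, adjusted p = 2.11e-07) and 1.82 under JG-98 (0.86 ± 0.077, adjusted p = 1.97e-07).

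PLAT, the tissue-type activator best known from clot dissolution, was a low-level gene with a large difference. It is ENSG00000104368, at 42175233 to 42207724 on the minus strand of chromosome 8. Counts were 75 and 70 in untreated Empty cells, 29 and 52 in Empty cells under JG-98, 406 and 501 in untreated NeuT cells, and 397 and 367 in NeuT cells under JG-98. The corresponding levels were 1.32, 1.23, 0.761 and 0.887 CPM in Empty and 7.42, 9.30, 7.35 and 6.79 CPM in NeuT libraries. The lines were far apart in both states. PLAT was 6.55-fold higher in untreated NeuT cells (log2 difference 2.71 ± 0.17, adjusted p = 1.33e-09) and 8.46-fold higher under JG-98 (3.08 ± 0.19, adjusted p = 8.25e-10).

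MMP9, MMP14, TIMP1, PLAU, PLAUR and PLAT, the 6 genes with at least 10 counts in every library, were all called higher in NeuT than in Empty cells, without treatment and under JG-98, at a Benjamini-Hochberg adjusted p under 0.05 over 17693 genes. Among all genes tested, 21.2% were called higher and 20.8% lower without treatment, and 21.7% higher and 20.0% lower under JG-98. The median log2 difference of the 6 was 1.62 and 1.52, and that of all genes -0.02 and -0.00. For these 6 genes, and for MMP1 and MMP10, all 4 NeuT libraries were above all 4 Empty libraries, as were those of 23.3% of all genes. MMP1 and MMP10 also had adjusted p-values under 0.05, but passed the count filter only where they were high, so they add nothing to the count. Scaling by total counts in place of TMM changed the share of all calls that were higher from 50.5% to 40.7% without treatment and from 52.0% to 41.0% under JG-98, and the 6 genes stayed called higher. These are bulk samples, so fewer expressing cells and less RNA per cell cannot be told apart.

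**Figure D2:**
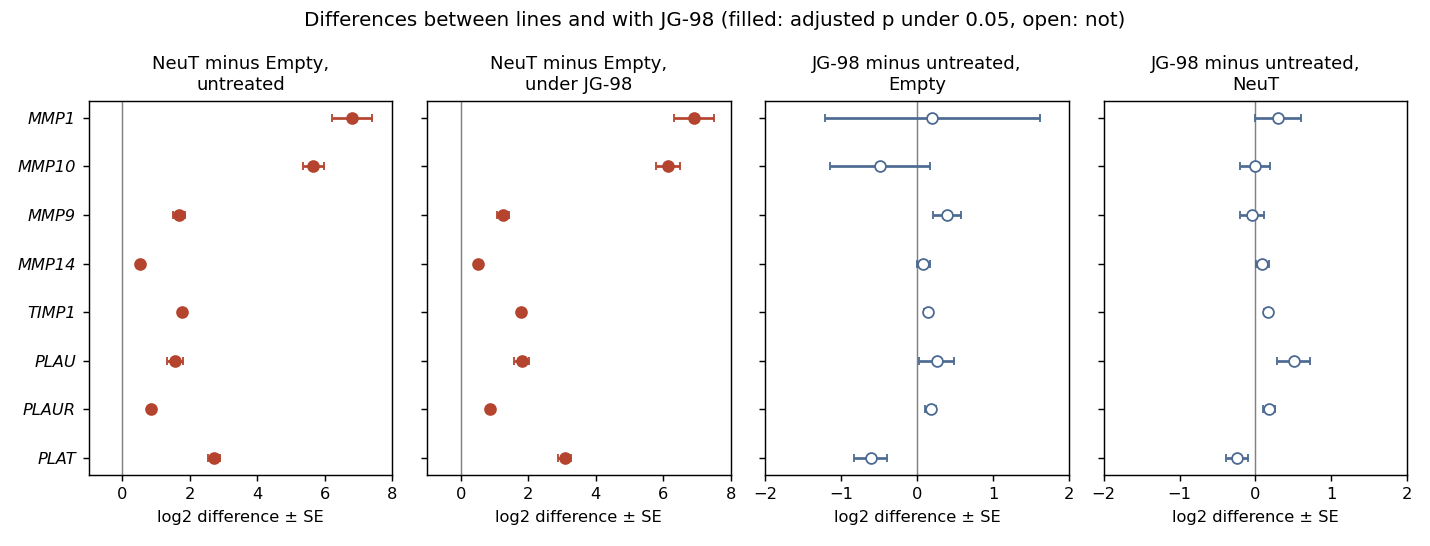
Log2 difference with its SE for the 8 tested genes in 4 comparisons, from the edgeR model, with filled points at an adjusted p under 0.05; the horizontal scale is the same within each pair of panels. All points of the line comparisons are filled and to the right of 0, from 0.51 for MMP14 without treatment, and all points of the JG-98 comparisons are open; MMP1 and MMP10 entered the test through their NeuT libraries alone, and their fitted values depend on the prior count.

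JG-98 moved none of these genes past the threshold in either line. In Empty cells 0 of 8 were called, against 0.260% of all genes called higher and 0.0791% called lower. MMP1, with 0 to 2 counts in an Empty library, and MMP10, with 2 to 6, could hardly have been called there. Their SEs were 1.42 and 0.66, so the result rests on the other genes. TIMP1 was 142.3 ± 2.93 CPM without and 156.9 ± 8.67 CPM with the inhibitor (SD, n = 2), a log2 difference of 0.14 ± 0.056 (SE, adjusted p = 0.394). PLAUR differed by 0.18 ± 0.077 (adjusted p = 0.459), MMP9 by 0.39 ± 0.19 (adjusted p = 0.522) and PLAU by 0.26 ± 0.23 (adjusted p = 0.797). For each of these 4 genes both treated libraries were above both untreated ones, as they were for 20.9% of all genes tested.

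PLAT was the gene whose treated libraries were both lower in Empty cells with more than a handful of counts, at 0.82 ± 0.089 against 1.27 ± 0.067 CPM, a log2 difference of -0.61 ± 0.22 (adjusted p = 0.318). MMP10 was also lower in both, on 6 counts against 10. Both treated libraries were lower for 22.2% of all genes. MMP14 differed by 0.08 ± 0.083 and its libraries overlapped. At an unadjusted p under 0.05 stood 3 of the 8 genes, TIMP1, PLAUR and PLAT, and 9.83% of all genes. DESeq2 and limma-voom likewise called 0 of these genes.

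In NeuT cells JG-98 again left 0 of 8 genes called, against 2.01% of all genes called higher and 1.01% lower. TIMP1 was 482.7 ± 16.1 CPM without and 539.7 ± 12.3 CPM with the inhibitor, a log2 difference of 0.16 ± 0.055 (adjusted p = 0.143). PLAU was 237.3 ± 5.20 against 336.0 ± 104.0 CPM, a difference of 0.50 ± 0.22 (adjusted p = 0.388), and PLAUR 157.2 ± 4.57 against 177.9 ± 21.7 CPM, a difference of 0.18 ± 0.076 (adjusted p = 0.257). Both treated libraries were above both untreated ones for these 3 genes and for 21.9% of all genes. PLAT was lower in both, like 22.9% of all genes, by a log2 difference of -0.24 ± 0.15 (adjusted p = 0.459), while MMP1, MMP9, MMP10 and MMP14 overlapped between treated and untreated cells, with differences of 0.30, -0.04, -0.01 and 0.09. TIMP1 and PLAUR were the 2 genes at an unadjusted p under 0.05, as were 15.99% of all genes, and DESeq2 and limma-voom called 0 of the 8.

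The call in NeuT cells rested on which of the 2 treated libraries was used. Replicate 2 exceeded replicate 1 by 0.78 in MMP1, 0.64 in PLAU, 0.49 in MMP9, 0.48 in MMP10, 0.30 in MMP14 and 0.25 in PLAUR on the log2 scale, while TIMP1 differed by 0.05 and PLAT by -0.11, and the median of all genes was 0.00. For PLAU, 4.86% of genes had a larger gap. The pair was also the least alike of the 4 over all genes, with a chi-square statistic per gene of 22.0 against 4.52 to 8.20 in the other groups. Without replicate 1, 4 genes were called higher with JG-98: PLAU by 0.79 (adjusted p = 2.77e-09), PLAUR by 0.30 (adjusted p = 0.00166), MMP14 by 0.23 (adjusted p = 0.00914) and TIMP1 by 0.18 (adjusted p = 0.0267). Without replicate 2, 0 were called. Leaving out either of these libraries also brought PLAU past the threshold in Empty cells at an unchanged difference of 0.26 (adjusted p = 0.00788 and 0.00853); the model shares 1 estimate of spread over all groups.

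The interaction of line and inhibitor, which asks whether JG-98 acted differently on a gene in NeuT and in Empty cells, was called for 0 of the 8 genes and for 0.00565% of all genes. For MMP1 and MMP10, with few counts in Empty cells, the interaction had SEs of 2.19 and 0.68 and could hardly have been called. It was 0.02 ± 0.078 for TIMP1, 0.00 ± 0.11 for PLAUR, 0.01 ± 0.12 for MMP14 and 0.24 ± 0.32 for PLAU, with adjusted p-values of 0.968, 0.999, 0.994 and 0.892. MMP9, at -0.44 ± 0.24 (adjusted p = 0.702), had the lowest unadjusted p of the 8, 0.0992. Without replicate 1 of NeuT under JG-98 the interaction of PLAU was 0.52 (adjusted p = 0.000534), and no other of the 8 was called. The authors' deposited tables of JG-98 against untreated cells list 8 of the 9 genes, without MMP3, and give none an adjusted p-value under 0.05. The lowest in the authors' deposited table for NeuT cells was PLAU, with a log2 fold change of 0.47 and an adjusted p-value of 0.0855.

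Levels of different genes were compared per kilobase, with all exonic bases of a gene as its length in the deposited table and, as an alternative chosen after seeing the data, the longest GENCODE 29 transcript. The choice moves PLAUR most, since its exonic bases come to 4457 and its longest transcript to 1610, and also PLAT, with 6618 and 3462. By either length TIMP1 was highest in every group, MMP14, PLAU and PLAUR followed, and MMP9, PLAT, MMP10 and MMP1 were scarce. MMP14 was above PLAU in both Empty groups and below it in both NeuT groups by either length, without overlap of libraries.

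Per kilobase of exonic length, the order in untreated Empty cells was TIMP1 at 98.4 ± 2.03 CPM per kilobase, MMP14 at 48.8 ± 2.62, PLAU at 27.3 ± 0.78, PLAUR at 19.4 ± 0.66, MMP9 at 1.99 ± 0.44, PLAT at 0.19 ± 0.010 and MMP10 at 0.050 ± 0.014, followed by MMP1 and MMP3 at or under the limit. Neighbours did not overlap down to MMP10. By transcript length PLAUR, at 53.8 ± 1.83, stood above PLAU, at 30.3 ± 0.87, and below MMP14, at 58.3 ± 3.14, so the place of PLAUR depends on the length. In untreated NeuT cells the exonic order was TIMP1 at 333.8 ± 11.1, PLAU at 80.5 ± 1.76, MMP14 at 69.6 ± 1.84, PLAUR at 35.3 ± 1.02, MMP9 at 6.38 ± 0.68 and MMP10 at 2.60 ± 0.22. By transcript length PLAUR was there next below TIMP1, at 97.6 ± 2.84, with PLAU at 89.3 ± 1.96 and MMP14 at 83.1 ± 2.20. PLAT, at 1.26 ± 0.20 by exonic length, overlapped MMP1, at 1.13 ± 0.16, but at 2.41 ± 0.38 by transcript length it was above MMP1 and overlapped MMP10.

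Under JG-98 the exonic order in Empty cells was the same down to MMP10, with TIMP1 highest at 108.5 CPM per kilobase. In NeuT cells under JG-98, PLAU was at 114 ± 35.3 CPM per kilobase of exonic length and MMP14 at 74.0 ± 10.8. By transcript length PLAU, at 126.4 ± 39.1, overlapped PLAUR, at 110.5 ± 13.5, there. MMP3 reached at most 2 counts in any library.

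**Figure D3:**
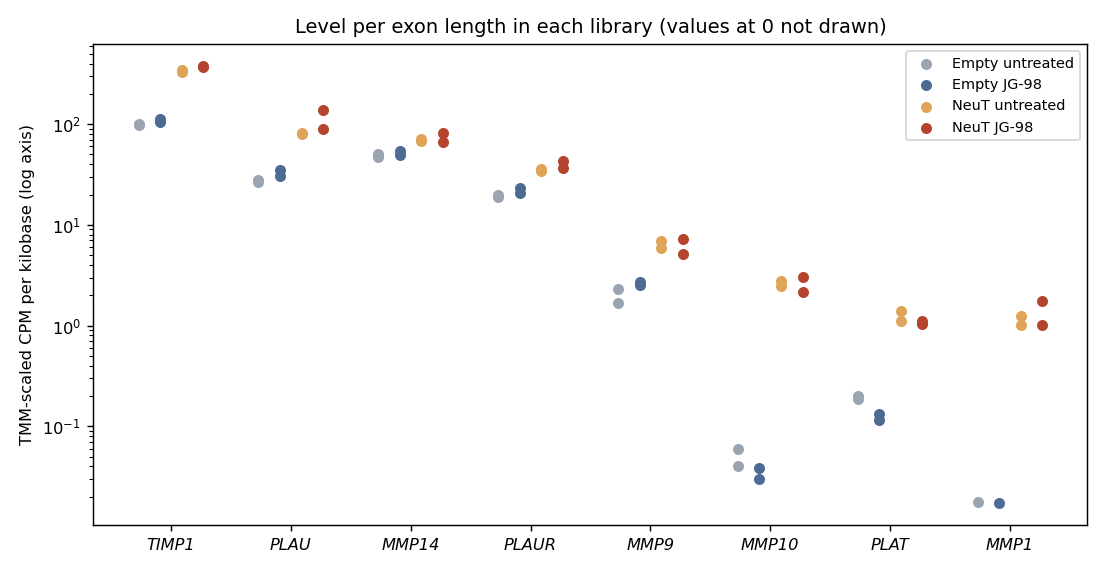
Level of each tested gene per kilobase of exonic length in each library, on a log axis in TMM-scaled CPM per kilobase, with 1 colour per group; libraries at 0 are not drawn. TIMP1 is highest in every group, and PLAU lies below MMP14 in the Empty libraries and above it in the NeuT libraries; the place of PLAUR and of PLAT depends on the length used.

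Ratios within a library set pairs of these genes against each other, per kilobase of exonic length. TIMP1 over MMP14 was 1.97 and 2.07 in untreated Empty cells, 2.28 and 1.94 under JG-98, 4.82 and 4.78 in untreated NeuT cells and 5.53 and 4.65 under JG-98. The ratio of PLAU to its receptor PLAUR was 1.40, 1.41, 1.51 and 1.47 in the Empty libraries and 2.37, 2.20, 2.44 and 3.20 in the NeuT libraries, in the same order of groups. By transcript length it was 0.561, 0.565, 0.603 and 0.588 in Empty and 0.948, 0.882, 0.978 and 1.28 in NeuT libraries, so which of the pair was more abundant depends on the length. Both ratios were higher in every NeuT library than in any Empty library, which no choice of length can change. PLAU to PLAT went the other way, at 139.5, 144.2, 303.3 and 227.7 in Empty and 72.9, 56.4, 80.2 and 135.3 in NeuT libraries. These ratios are of RNA levels and were not tested separately.

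The rest of the protease network was read from 6 lists of 115 genes, of which 89 were tested. Without treatment 42 were called higher in NeuT and 18 lower, with a median log2 difference of 0.21, and under JG-98 39 higher and 16 lower, with a median of 0.25. The shares of all genes were 21.2% higher and 20.8% lower without treatment and 21.7% and 20.0% under JG-98, so the number of list genes called lower was near the background. Among inhibitors, receptors and the substrate of the plasminogen system, 10 of 13 tested genes were higher and 1 lower without treatment, with a median of 0.80, and 10 were higher and 0 lower under JG-98, with a median of 0.71. The 10 higher genes without treatment included inhibitors of PLAU and PLAT, and also F3, PROCR and TFPI, which act in blood coagulation. SERPINB2, an intracellular and secreted inhibitor of urokinase, was at 15.7 ± 2.40 CPM in untreated Empty and 182.0 ± 9.97 CPM in untreated NeuT cells, a log2 difference of 3.53 ± 0.26 (adjusted p = 0.000357), and differed by 3.16 under JG-98. SERPINE2, protease nexin-1, was at 72.1 and 67.4 against 297.5 and 272.2 CPM, a difference of 2.03 ± 0.065 (adjusted p = 4.86e-13). Both inhibitors were thus several-fold higher in NeuT cells, as were their targets.

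LRP1, an endocytic receptor that clears complexes of activators with their inhibitors, differed by 2.69 ± 0.13 without treatment and 3.01 under JG-98. Plasminogen itself, PLG, had 2 counts over all 8 libraries and was not tested, so these data hold the activators and inhibitors but hardly any RNA of their substrate.

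Of 11 other metalloproteinases tested, 6 were higher and 2 lower without treatment, with a median log2 difference of 0.36, and 6 were higher and 1 lower under JG-98, with a median of 0.33. Beside the 20.8% and 20.0% of all genes called lower, the counts lower were near or under the background. MMP2, the gelatinase whose precursor MMP14 activates, was at 20.3 and 19.7 CPM in untreated Empty and 53.1 and 51.5 CPM in untreated NeuT cells, a difference of 1.39 ± 0.068 (adjusted p = 5.52e-11). MMP19 was higher by 2.85 ± 0.15 without treatment and by 2.93 under JG-98. MMP7, or matrilysin, an epithelial enzyme, was called lower, by a log2 difference of -1.76 ± 0.15 (adjusted p = 3.41e-07). MMP13, a collagenase like MMP1, stayed low in every library at 0.167 to 0.508 CPM and differed by -0.22 ± 0.54 (adjusted p = 0.787).

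Of 6 tested genes in the list of other metalloproteinase inhibitors and their inducer, 5 were called higher without treatment, namely TIMP2, TIMP3, RECK, SPOCK1 and the inducer BSG, and SPOCK2 was called lower. TIMP2, which also takes part in the activation of MMP2 by MMP14, was 94.7 ± 0.96 CPM in untreated Empty and 163.7 ± 3.31 CPM in untreated NeuT cells, a log2 difference of 0.79 ± 0.055 (adjusted p = 4.6e-09). TIMP3, the matrix-bound inhibitor, differed by 0.36 ± 0.054 (adjusted p = 3.67e-05). RECK, a membrane-anchored inhibitor, differed by 0.35 ± 0.12 (adjusted p = 0.0249) without treatment, but by -0.15 under JG-98 (adjusted p = 0.328), and with total counts or DESeq2 its adjusted p without treatment was 0.0712 or 0.0521. The call for RECK was also lost without any 1 of the 4 untreated libraries (adjusted p of 0.0502 to 0.135). Under JG-98, 3 genes of the list were called higher and 1 lower. Among all genes 21.2% were higher and 20.8% lower without treatment, and 21.7% and 20.0% under JG-98, so the 1 lower gene was near the background.

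The wider families had calls in both directions, beside 21.2% of all genes called higher and 20.8% lower. ADAM and ADAMTS proteases had 5 of 19 tested genes higher and 2 lower (median 0.09), and cathepsins with cystatins 7 of 17 higher and 4 lower (median 0.08). The ADAM count higher and the cathepsin count lower were near those shares. Cell-surface and secreted serine proteases with their inhibitors had 9 of 23 higher and 8 lower (median -0.07). Within the last list, the kallikreins KLK6, KLK5 and KLK7, which shed cells of stratified epithelia, were called lower by log2 differences of -2.39, -2.28 and -1.84, while PI3, an elastase inhibitor, was higher by 2.81. Under JG-98 the same 3 kallikreins had the most negative differences by the naming rule, at -2.68, -2.27 and -1.87.

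**Figure D4:**
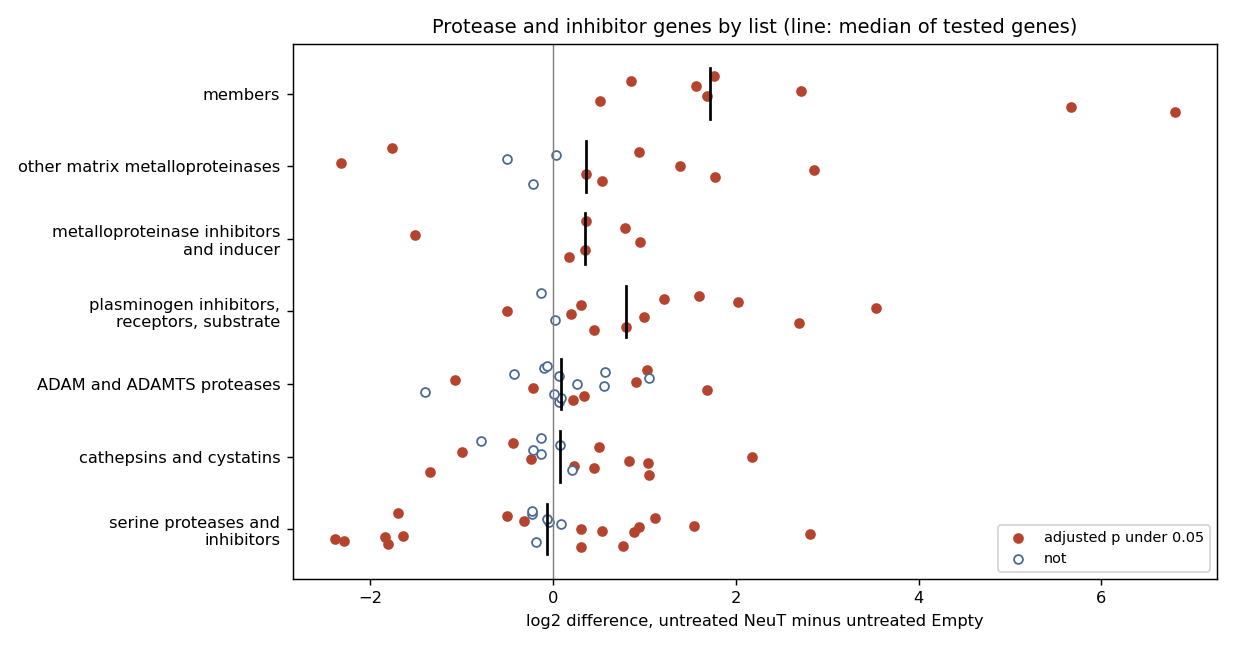
Log2 difference between untreated NeuT and untreated Empty cells for the 8 tested genes and for each list of related genes, with filled points at an adjusted p under 0.05 and a black line at the median; vertical offsets within a row separate the points. The plasminogen list has a median of 0.80 and the serine protease list -0.07, with points on both sides of 0; MMP1 and MMP10, the points farthest right, entered the test through their NeuT libraries alone.

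With JG-98, the lists gave 2 called genes in Empty cells, both higher, and 3 in NeuT cells, all higher, out of 89 tested. Of all genes 0.260% were called higher in Empty and 2.01% in NeuT cells, so the count in NeuT cells was near the background. PRSS22, a secreted tryptase-like protease, differed by 0.68 ± 0.13 in Empty (adjusted p = 0.0295) and by 0.66 ± 0.12 in NeuT cells (adjusted p = 0.00543). PRSS8, or prostasin, a membrane-anchored serine protease of epithelia, differed by 0.37 ± 0.057 (adjusted p = 0.00731) and by 0.32 ± 0.057 (adjusted p = 0.00382). CSTA, an inhibitor of cysteine proteases, differed by 0.37 ± 0.088 in NeuT cells (adjusted p = 0.0308). The calls were lost without some single libraries, with adjusted p-values of up to 0.487 for PRSS22, 0.29 for PRSS8 and 0.314 for CSTA. PRSS22 in Empty cells was not called by limma-voom (adjusted p = 0.132), nor CSTA in a fit of only the 4 NeuT libraries (adjusted p = 0.101). No gene of the metalloproteinase, inhibitor, plasminogen or ADAM lists was called with JG-98 in either line.

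The gene nearest to each of the 8 in pattern over the 8 libraries was found as the smallest root mean square difference of centred log2 CPM among 13115 genes with a symbol and a mean of at least 50 counts. For MMP1 it was MMP10, at 0.32, and MMP1 ranked 3 among the neighbours of MMP10, after LCE3D at 0.15. The others were SPRY4-AS1 for MMP9 (0.14), SERPINB8 for MMP14 (0.041), TNNT1 for TIMP1 (0.066), ZNF697 for PLAU (0.085), KIFC3 for PLAUR (0.048) and PAPPA for PLAT (0.16). Apart from the MMP1 and MMP10 pair, none of the 8 had another of the 8 closer than rank 26, that of TIMP1 for PLAU. All 8 genes were higher in NeuT than in Empty libraries, a difference that enters the measure, which is a description only.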

How the data were processed

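RNA was selected for poly(A) and sequenced from 8 libraries, per the labels' protocols, and groups came from sample titles. The authors deposited raw counts per gene, per the file headers. The submitters' processing notes name Trim Galore 0.5.0, FastQC 0.11.7, HISAT2 2.1.0, SAMtools 1.9, featureCounts 1.6.3, limma and GRCh38; the annotation release and the use of strand are not given in the sources used here. The authors also deposited, per the file headers, log2 fold changes, test scores and p-values for JG-98 in each line, which are printed only where named. The number of columns matched to no sample was 0. Coordinates are those of the count table, 1-based.

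Counts were analysed in R 4.3.3 with edgeR 4.0.16: filterByExpr (minimum count 10, total 15; 17693 genes kept), TMM scaling, 1 robust quasi-likelihood model of all 8 libraries with a coefficient per group, and Benjamini-Hochberg adjustment over all genes tested, called under 0.05. SE is the size of the difference divided by the square root of F. An exact permutation test of 2 against 2 libraries cannot go below 0.333 and was not used. Alternatives included DESeq2 1.42.0 and limma-voom 3.58.1, other scalings and filters, and leaving out libraries. The script was tested on simulated counts. The members and lists were chosen with earlier results of these data known. Of list genes, the rule named the 3 largest rises and falls per comparison that were called, averaged 50 counts or more and showed no overlap of libraries, and SERPINB2, SERPINE2, TIMP2, TIMP3, PLG, MMP2, MMP13 and RECK whatever their values; 1 further gene of the rule is not reported here. MMP7, SPOCK1, SPOCK2, BSG, F3, PROCR and TFPI were named after their values were seen.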

Additional observations from a re-analysis of the deposited data

How the results depend on the processing

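MMP9, MMP14, TIMP1, PLAU, PLAUR and PLAT, the 6 members with at least 10 counts in every library, were called higher in NeuT cells, without and with JG-98, under all 17 alternatives, which covered scaling, filters, DESeq2, limma-voom, non-robust estimation, the replicate block, fits of 4 libraries and leaving out each library. MMP1 and MMP10 passed the filter through their NeuT libraries alone and are not counted here. The largest adjusted p was 0.0403, for PLAU without treatment. Leaving out 1 library in turn gave 0 to 1 members called with JG-98 in Empty, 0 to 4 in NeuT and 0 to 1 for the interaction, the nonzero counts coming without replicate 1 of NeuT under JG-98 and, in Empty, also without its replicate 2; a group thinned to 1 library is then assumed to vary like the others.

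Signs turned only among differences that were not called. Left-out libraries gave MMP1 -3.07 to 3.28 with JG-98 in Empty. In NeuT they gave MMP1 -0.15 to 0.64, MMP9 -0.32 to 0.18, MMP10 -0.28 to 0.21 and MMP14 -0.0747 to 0.23. For the interaction they gave MMP1 -2.98 to 3.37, MMP14 -0.16 to 0.14, TIMP1 -0.0335 to 0.0778, PLAU -0.13 to 0.52 and PLAUR -0.14 to 0.12, and for MMP13 between untreated lines -0.78 to 0.73. The interaction was -0.0616 for MMP1 and -0.000807 for MMP14 with limma-voom, and for PLAUR -0.0046 with RLE size factors, -0.0047 with total counts, -0.0030 with at least 10 counts and -0.0050 with DESeq2. The cause was not tested.

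Counts over all genes moved more. With JG-98 in Empty 60 genes were called, against 282 without a filter, 151 by DESeq2, 205 from 4 libraries and 9 to 417 with a library left out. In NeuT 533 were called, against 1000, 185 from 4 libraries and 132 to 2133. For the interaction 1 was called, against 2 with total counts, 138 without a filter, 26 by DESeq2, 3 without robust estimation and 1 to 777. List genes called higher with JG-98 were 2 in Empty, with a range of 0 to 5, and 3 in NeuT, with a range of 0 to 11.

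With the replicate number as a block the same 6 members were called in both line comparisons, and 0 members with JG-98 in Empty, with JG-98 in NeuT and for the interaction. The labels do not say that a replicate number pairs libraries. Deviations of same-numbered libraries correlated at -0.10 to 0.24 over 9551 genes, with 0.24 between Empty and NeuT cells under JG-98. In NeuT the correlation was -0.10, and a crossed pairing, added after seeing the data, called 0 members and 454 genes.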
